A study of Mus musculus with 6 samples.

Results

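The genes described here are the receptors, ligands and fringe glycosyltransferases of the Notch pathway, measured in dorsal forebrain from individual mouse embryos of E11.5. They were found by symbol in the authors' deposited comparison table: 14 of its 27269 non-control probes carry the symbol of 1 of 10 genes, namely Notch1, Notch2, Notch3, Dll1, Dll3, Dll4, Jag1, Jag2, Lfng and Mfng, out of 22305 genes named on the array. The rule matches symbols and reads no measured value, though the set of genes was proposed with earlier results of these data known. Of these, 8 genes are named in the table's own symbol column, and Notch1 and Mfng are named only in its Agilent symbol column. All 14 probes were well above background on all 6 arrays. RNA of 3 mutant and 3 control embryos was hybridised to Agilent 1-colour arrays. Mutant 1 and control 1 are littermates, as are mutant 2 and control 2, and mutant 3 and control 3. The labels call the groups mutant and control and give no allele, Cre driver, strain or mutated gene, so what the controls carry is not known here either. The series title places the study within Wnt/beta-catenin signalling and the order of fates taken by cortical precursors.

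Notch signalling passes between touching cells. A Delta-like (Dll) or Jagged (Jag) ligand on a cell binds a Notch receptor on its neighbour, the receptor is cleaved, and its inner part joins Rbpj in the nucleus to activate Hes and Hey repressors. In the embryonic cortex, cells that begin to differentiate carry proneural factors and Delta ligands, and the neighbours that receive the signal remain progenitors. Fringe enzymes such as Lfng and Mfng add a sugar to the receptor, which alters its response to Delta against Jagged ligands.

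Levels are given as log2 of the processed signal over that array's 75th percentile, and differences as mutant minus control. Values of the 3 embryos of a group stand in the order of litters 1, 2 and 3. A level at 0 therefore equals that percentile, and levels of different probes are not compared as amounts of RNA. Where probes are subtracted or summed below, the result is compared only between embryos, and brighter probes weigh more in a sum. The 75th percentile of the signal was 1206.9 to 1380.2 on mutant arrays and 1446.2 to 1833.2 on control arrays. Spots well above background made up 65.75% to 67.9% on mutant arrays and 68.68% to 70.1% on control arrays, and no spot was saturated. Slide 1 held the litter 1 embryos and slide 2 those of litters 2 and 3. The number of arrays, 3 a group, limits the precision. Lhx2, Emx1, Emx2 and Pax6, which mark the dorsal telencephalon among other tissues, were well above background on every array.

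No member passed the test over the whole table. In limma with Benjamini-Hochberg adjustment over 21202 genes and unnamed probes, 0 of the 10 members had an adjusted p under 0.05, against 0.033% of all rows (0.00943% higher and 0.0236% lower), and their smallest adjusted p was 0.17. At an unadjusted p under 0.05 there were 3 members, Dll3 and Jag2 above the controls and Jag1 below them, against 16.9% of all rows. The same 3 were those whose 3 mutants and 3 controls did not overlap, against 24.8% of all rows. The median difference was 0.06 over the 10 members and 0.02 over all rows, and the median absolute difference was 0.19 and 0.14. Differences were positive for 6 of the 10 members and for 55% of all rows. The share of all rows moved with the scaling. It was 64.5% with normexp background correction, 48.3% with quantile normalization and 38.7% with the array median as centre. The members' count was also 0 with normexp background correction and with trend and robust variance, which called 0.797% and 0.66% of all rows.

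**Figure D1:**
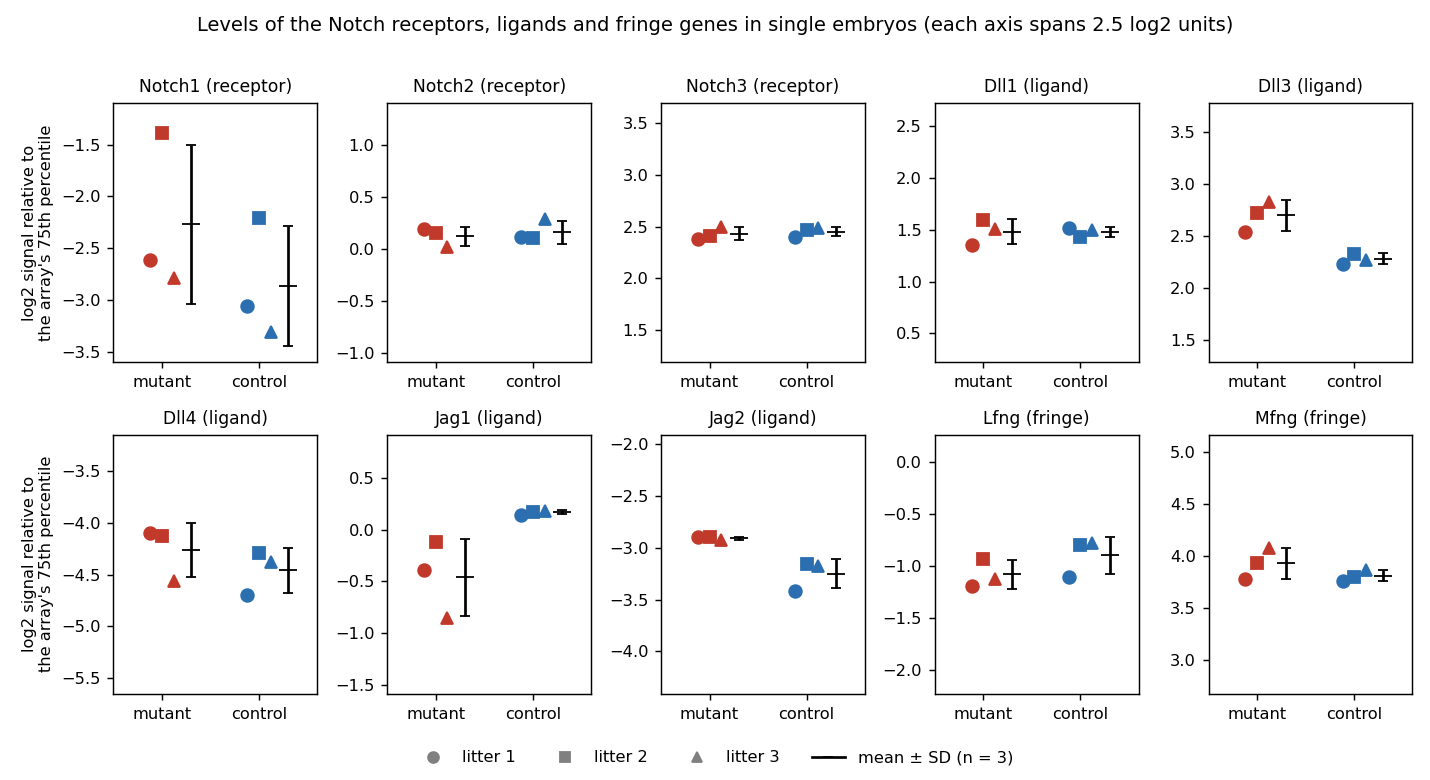
Level of each gene in single embryos (y axis, log2 signal relative to the array's 75th percentile), mutants left and controls right, with litters as symbols and the mean and SD of 3 embryos as black bars. The 3 mutants lie above all controls for Dll3 and Jag2 and below them for Jag1, and Notch1 is highest in litter 2 of each group.

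Among the receptors, Notch2 and Notch3 were close to the control level. Notch3, a receptor of neural progenitors and of the mural cells around vessels, was at 2.38, 2.41 and 2.5 in mutant embryos, against 2.40, 2.47 and 2.49 in control embryos. Its groups overlapped throughout, and the interval of the difference allowed no more than a ratio of 0.875 to 1.11 (95% interval, limma, adjusted p = 0.905). Notch2 was at 0.19, 0.15 and 0.02 in mutant embryos, against 0.11, 0.10 and 0.29 in control embryos. Its ratio lay between 0.829 and 1.13 (95% interval, adjusted p = 0.823). For both, the sign of these small differences depended on the scaling or the probe: that of Notch3 was -0.02, but 0.003 with quantile normalization. A further Notch2 probe, much dimmer, was at -4.76, -5.79 and -5.98 in mutant embryos and at -5.83, -6.17 and -6.05 in control embryos. Only mutant 1 stood clear of the other 5 embryos on it, and its difference of 0.51 did not pass (limma over all kept probes, adjusted p = 0.483). With normexp background correction all 3 mutants were above all controls on it, with a difference of 0.37.

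Notch1, the receptor most studied in cortical progenitors, was read by 2 probes that differed in how they varied between litters. The brighter was at -2.61, -1.39 and -2.79 in mutant embryos, against -3.06, -2.21 and -3.31 in control embryos. In each group the litter 2 embryo was highest, by 1.31 over the mean of the other mutants and by 0.98 over that of the other controls. The second probe was at -3.60, -3.39 and -3.17 in mutant embryos, against -3.66, -3.73 and -3.71 in control embryos, and here litter 2 differed from the others by only -0.01 and -0.04. Each mutant was above its littermate on both probes. The differences were 0.59 (SE 0.46, adjusted p = 0.552) and 0.31 (SE 0.12, limma over all kept probes, adjusted p = 0.288), so neither passed. On the second probe all 3 mutants were above all controls, but not with quantile normalization or the array median as centre. The brighter probe depended on single embryos, with a difference of 0.15 without mutant 2 and 0.92 without control 2. The probes lie on mm9 chromosome 2, on the minus strand, from 26319440 to 26319499 (brighter) and from 26314630 to 26314689, and both are annotated to the same RefSeq transcript of Notch1. Which of them reads Notch1 RNA more faithfully was not tested.

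**Figure D2:**
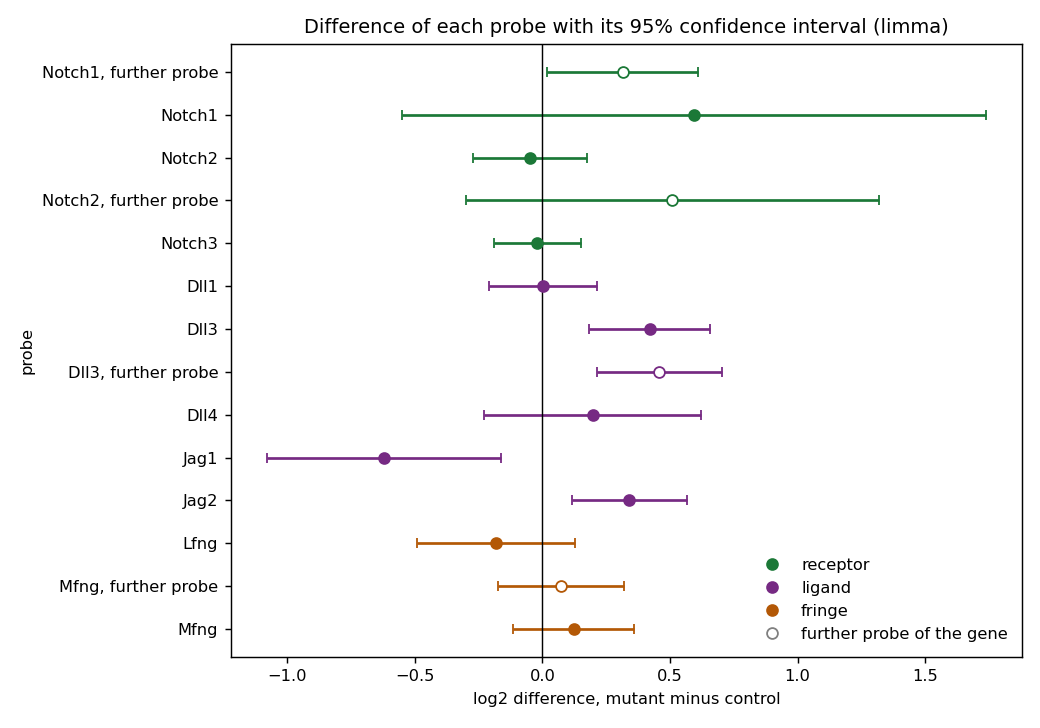
Log2 difference, mutant minus control, of each of the 14 probes (x axis) with its 95% confidence interval from limma, coloured by role, with open symbols for further probes of a gene. The intervals of Dll3 (both probes), Jag1, Jag2 and the further Notch1 probe leave out 0, those of Notch2, Notch3 and Dll1 are narrow around it, and that of the brighter Notch1 probe is the widest.

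Of the Delta-like ligands, Dll1 had a difference near 0, and Dll3 was above the controls in every mutant without passing the test. Dll1, the ligand by which differentiating cells of the cortex activate Notch in their neighbours, was at 1.35, 1.59 and 1.51 in mutant embryos, against 1.52, 1.43 and 1.5 in control embryos. The groups overlapped, with 1.48 ± 0.12 in mutants and 1.48 ± 0.05 in controls (SD, n = 3 each, limma, adjusted p = 0.994), and a ratio between 0.864 and 1.16 (95% interval). Dll3 is a divergent member of the family that does not activate Notch on neighbouring cells and can dampen it in its own cell. It was at 2.54, 2.72 and 2.83 in mutant embryos, against 2.23, 2.33 and 2.27 in control embryos, so that every mutant was above every control. A further Dll3 probe gave the same picture, with 0.97, 1.16 and 1.28 in mutant embryos and 0.70, 0.73 and 0.61 in control embryos. On both probes mutant 1 was the lowest of the mutants. Dll3 was thus 1.34-fold and 1.37-fold the control level on the 2 probes, which did not pass over the whole table (log2 differences 0.42, SE 0.10, adjusted p = 0.17, and 0.46, SE 0.10, limma over all kept probes, adjusted p = 0.161). In the authors' deposited table the fdr of these probes was 0.0646 and 0.0508. On mm9 chromosome 7, minus strand, the probes span 29078763 to 29078822 and 29079061 to 29079120. The Dll1 probe spans 15504623 to 15504682 on chromosome 17, minus strand.

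Because array scaling cancels within an embryo, the difference between Dll3 and Dll1 was also taken embryo by embryo. This log2 difference between the probes of Dll3 and Dll1 was 1.19, 1.13 and 1.32 in mutant embryos, against 0.71, 0.90 and 0.77 in control embryos. All mutants were above all controls, by 0.42 on average. The pair was chosen after its values were seen, so this is a description with no test, and it shows unequal difference only. As Dll1 itself differed by 0.002, it largely repeats the difference of Dll3 and is no separate result.

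Dll4, the Delta ligand of arteries and of the leading cells of vessel sprouts, was at -4.10, -4.13 and -4.56 in mutant embryos, against -4.70, -4.29 and -4.38 in control embryos. The groups overlapped and mutant 3 was below 2 of the controls (difference 0.20, SE 0.17, limma, adjusted p = 0.597), but with normexp background correction all 3 mutants were above all controls (difference 0.24). Without mutant 3 the difference was 0.34, and without control 1 it was 0.07. The sign was not steady, with 0.61, 0.155 and -0.175 within litters 1, 2 and 3. The median of 11 endothelial genes, taken from the control mean, stood in a like order: 0.27, 0.02 and -0.29 in mutant embryos, against -0.11, 0.12 and 0.005 in control embryos. In pieces of tissue, fewer cells of a type and less RNA per cell cannot be told apart, and the part of vessel content in the Dll4 values was not tested. The Dll4 probe spans 119160779 to 119160838 on mm9 chromosome 2, plus strand.

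The Jagged ligands stood on opposite sides of the controls. Jag1, a ligand described as a target of beta-catenin in other tissues such as mouse epidermis, was at -0.39, -0.12 and -0.85 in mutant embryos, against 0.14, 0.17 and 0.18 in control embryos. Every mutant was below every control, and the mutants spread far more widely (-0.46 ± 0.37) than the tightly placed controls (0.17 ± 0.02, SD, n = 3 each). Jag1 was thus 0.65-fold the control level, the lowest ratio among the members (difference -0.62, SE 0.19, limma, adjusted p = 0.217), with -0.42 without mutant 3 and -0.79 without mutant 2. Within litters 1, 2 and 3 the difference was -0.53, -0.30 and -1.04, and the authors' deposited table gives an fdr of 0.094. Jag2 was at -2.90, -2.90 and -2.93 in mutant embryos, against -3.42, -3.16 and -3.18 in control embryos. The mutants were nearly equal to each other and all above the controls, at 1.27-fold (difference 0.34, SE 0.09, limma, adjusted p = 0.197). Control 1 was the lowest control, and without it the difference was 0.26. Taken embryo by embryo, the log2 difference between the Jag2 and Jag1 probes was -2.51, -2.78 and -2.08 in mutant embryos, against -3.56, -3.34 and -3.36 in control embryos. This pair too was chosen after the values were seen. Its groups could not overlap, because every mutant was above the controls for Jag2 and below them for Jag1. The Jag1 probe spans 136907433 to 136907492 on mm9 chromosome 2 and the Jag2 probe 114146887 to 114146946 on chromosome 12, both on the minus strand.

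The fringe genes had small differences that did not pass and moved with single embryos. Lfng, which is under Notch control in the presomitic mesoderm and is active in neural progenitors, was at -1.19, -0.93 and -1.13 in mutant embryos, against -1.11, -0.80 and -0.78 in control embryos. Each mutant was below its littermate, with differences of -0.34 to -0.08, yet the groups overlapped, with litter 1 the lowest in each (difference -0.18, SE 0.13, limma, adjusted p = 0.502). Without control 1 the difference was -0.29. Mfng was at 3.78, 3.93 and 4.08 in mutant embryos, against 3.76, 3.80 and 3.86 in control embryos. Each mutant was above its littermate on this probe, by 0.02, 0.13 and 0.215 in litters 1, 2 and 3 (difference 0.12, SE 0.10, adjusted p = 0.556). It was 0.05 without mutant 3, 0.20 without mutant 1 and 0.03 with the array median as centre. On the further Mfng probe mutant 1 was below its littermate, at 3.65 against 3.81, and the difference of 0.07 became -0.02 with the array median as centre. The Lfng probe spans 141091224 to 141091283 on mm9 chromosome 5, plus strand, and the Mfng probes 78586332 to 78586391 and 78586430 to 78586489 on chromosome 15, minus strand.

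**Figure D3:**
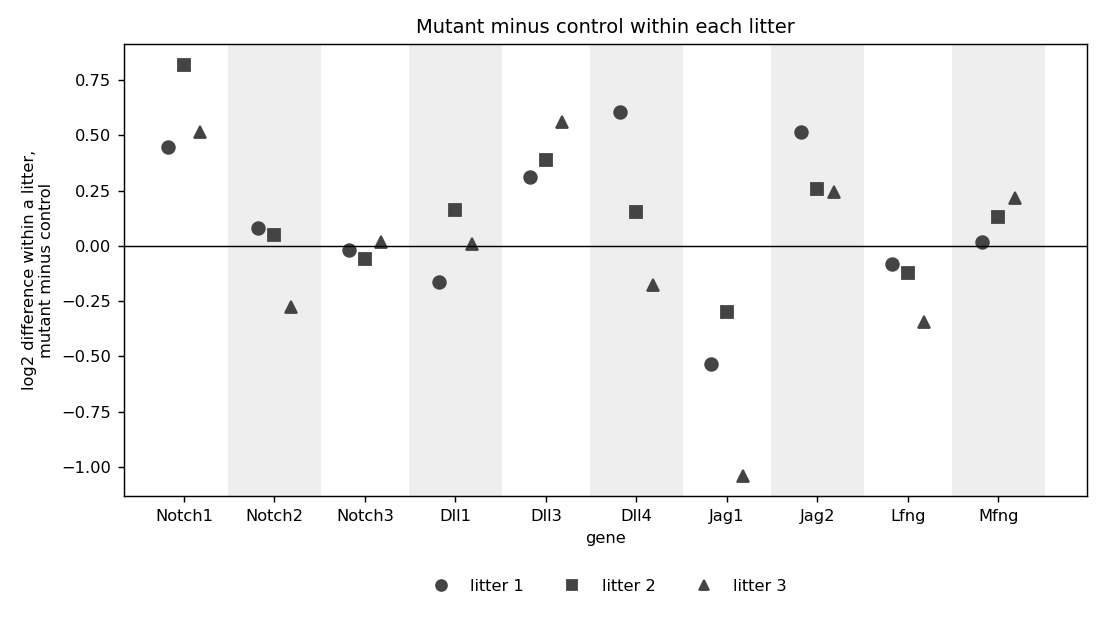
Log2 difference, mutant minus control, within litters 1, 2 and 3 (y axis) for the 10 genes. All 3 litters lie above 0 for Notch1, Dll3, Jag2 and Mfng and below it for Jag1 and Lfng, while Notch2, Notch3, Dll1 and Dll4 have litters on both sides.

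Within litters, 4 members were above the littermate control in all 3 (Notch1, Dll3, Jag2 and Mfng) and 2 were below it in all 3 (Jag1 and Lfng). The share of all rows with the same sign in all 3 litters was not computed. These 2 counts therefore have no background beside them and are not read as a trait of the members. With litter as a replicate block 0 members passed in limma, and 0% of all rows did. At an unadjusted p under 0.05 there were then 4 members, against 19.8% of all rows, with Notch1 beside Dll3, Jag1 and Jag2. For Notch1 the SE was 0.10 with the block and 0.46 without it. These were 3 above the controls (12.3% of all rows) and 1 below (7.55%). The smallest adjusted p was then 0.156, for Notch1, and was 0.158 for Dll3 (over all alternatives 0.102 to 0.864 for Notch1 and 0.0794 to 0.518 for Dll3). The Dll3 difference was 0.31 within slide 1, which holds litter 1, and 0.47 on slide 2. For Jag1 these were -0.53 and -0.67, and for Jag2 0.52 and 0.25.

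The sequence just upstream of the start site is printed for the ligands whose groups did not overlap, Dll3, Jag1 and Jag2, and for Dll1 as the Delta ligand whose groups did. Each is the 250 bases before the RefSeq start in GRCm38.p6, 5' to 3' on the strand of the gene. Capitals mark matches on either strand to 4 short motifs: TGGGAA (the core bound by Rbpj), CTTTGA (the core bound by Tcf/Lef factors), and CAGCTG and CATCTG (E-boxes, of the kind proneural factors bind).
Dll3, chr7:28301786-28302035, minus strand: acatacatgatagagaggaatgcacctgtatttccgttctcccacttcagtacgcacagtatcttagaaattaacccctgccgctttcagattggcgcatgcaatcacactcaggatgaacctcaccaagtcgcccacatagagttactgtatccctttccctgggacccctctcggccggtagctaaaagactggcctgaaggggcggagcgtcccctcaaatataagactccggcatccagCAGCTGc
Jag1, chr2:137116521-137116770, minus strand: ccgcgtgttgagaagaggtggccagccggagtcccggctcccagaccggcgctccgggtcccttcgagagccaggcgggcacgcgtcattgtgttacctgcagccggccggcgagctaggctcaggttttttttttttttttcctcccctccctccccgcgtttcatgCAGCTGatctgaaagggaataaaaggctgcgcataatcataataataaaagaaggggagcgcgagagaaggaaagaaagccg
Jag2, chr12:112929496-112929745, minus strand: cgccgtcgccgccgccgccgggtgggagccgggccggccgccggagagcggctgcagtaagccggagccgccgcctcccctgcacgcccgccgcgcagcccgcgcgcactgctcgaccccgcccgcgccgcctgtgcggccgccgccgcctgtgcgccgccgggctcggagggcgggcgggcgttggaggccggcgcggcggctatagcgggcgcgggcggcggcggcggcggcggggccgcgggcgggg
Dll1, chr17:15376933-15377182, minus strand, the more upstream of 2 start sites: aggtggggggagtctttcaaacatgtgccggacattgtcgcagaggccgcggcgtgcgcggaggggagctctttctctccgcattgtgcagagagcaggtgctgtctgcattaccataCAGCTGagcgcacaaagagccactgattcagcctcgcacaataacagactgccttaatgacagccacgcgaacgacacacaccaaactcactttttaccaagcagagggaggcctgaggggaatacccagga

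The motif CAGCTG, its own reverse complement, is held by 13.0% of 32851 RefSeq promoter windows of this length. It was found once each in Dll3, from 7 to 2 bases before the start, in Jag1, from 82 to 77 bases before it, and in Dll1, from 132 to 127 bases before it, but not in Jag2. The other Dll1 window, at the more downstream start site (chr17:15375824-15376073, GC content 64.0%), holds no match to any of the 4 motifs. The window of Jag2 held none of the 4 motifs and had a GC content of 87.2%, against 52.0% for Dll3, 57.2% for Jag1, 56.0% for the printed Dll1 window and a median of 52.4% over all windows. The Tcf/Lef core was in none of the 10 windows of the 9 members matched by symbol, and is in 13.8% of all windows. The Rbpj core, in 21.6% of all windows, was found only for Lfng, from 135 to 130 and from 108 to 103 bases before its start, where CAGCTG also stands from 146 to 141. CATCTG, in 14.4% of all windows, was in none of them. Mfng was not matched. These matches describe the letters in a short window, and Dll3 and Dll1, which share CAGCTG (Dll1 in 1 of 2 windows), had differences of 0.42 and 0.002.

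The rest of the pathway was likewise without a call. Of 50 other genes, 49 had a row in the fit (Aph1c had none), and 0 passed in limma. At an unadjusted p under 0.05, 6 were above and 2 below the controls (9.45% and 7.41% of all rows). With litter as a replicate block these counts were 8 above and 3 below, with Aph1b, Dtx3, Maml3 and Hey1 gained and Dtx1 lost. The 3 mutants were above all controls for 10 and below for 4, that is 28.6% of the list, against 24.8% of all rows. The median difference was 0.05, against 0.02 over all rows.

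By role, the lists did not lean the same way. The 6 target genes had a median of -0.19, with 5 negative. Hey1, a repressor activated by Notch, was at 2.65, 2.71 and 2.85 in mutant embryos, against 2.92, 2.91 and 3.27 in control embryos, with every mutant below every control (difference -0.30, SE 0.13, limma, adjusted p = 0.311). Hes1, another target and a repressor of proneural genes, was at -1.34, -1.34 and -1.37 in mutant embryos, against -1.20, -1.27 and -1.03 in control embryos, again without overlap (difference -0.19, SE 0.08, adjusted p = 0.338). Hes5 was 5.30 ± 0.10 in mutants and 5.4 ± 0.16 in controls (SD, n = 3 each), and its groups overlapped. So did those of Heyl (difference -0.20), Nrarp (0.07) and the dim Hey2 (-0.78, but -0.09 with normexp background correction). Conversely all 6 proneural genes had positive differences, with a median of 0.39. Gadd45g, a stress sensor expressed in newborn neuronal cells, was at 4.50, 4.62 and 4.92 in mutant embryos, against 4.25, 4.11 and 4.26 in control embryos (difference 0.48, SE 0.13, limma, adjusted p = 0.194). Neurog1, a proneural factor, was at -2.74, -2.22 and -2.37 in mutant embryos, against -3.06, -2.90 and -2.90 in control embryos (difference 0.51, SE 0.15, adjusted p = 0.213). Neither pair of groups overlapped, and neither difference passed. Hey1, Hes1, Gadd45g and Neurog1 were named for the smallest unadjusted p of their lists, which favours groups without overlap. The mutants were below all controls for 2 of the 6 targets and above them for 3 of the 6 proneural genes, against 24.8% of all rows without overlap.

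**Figure D4:**
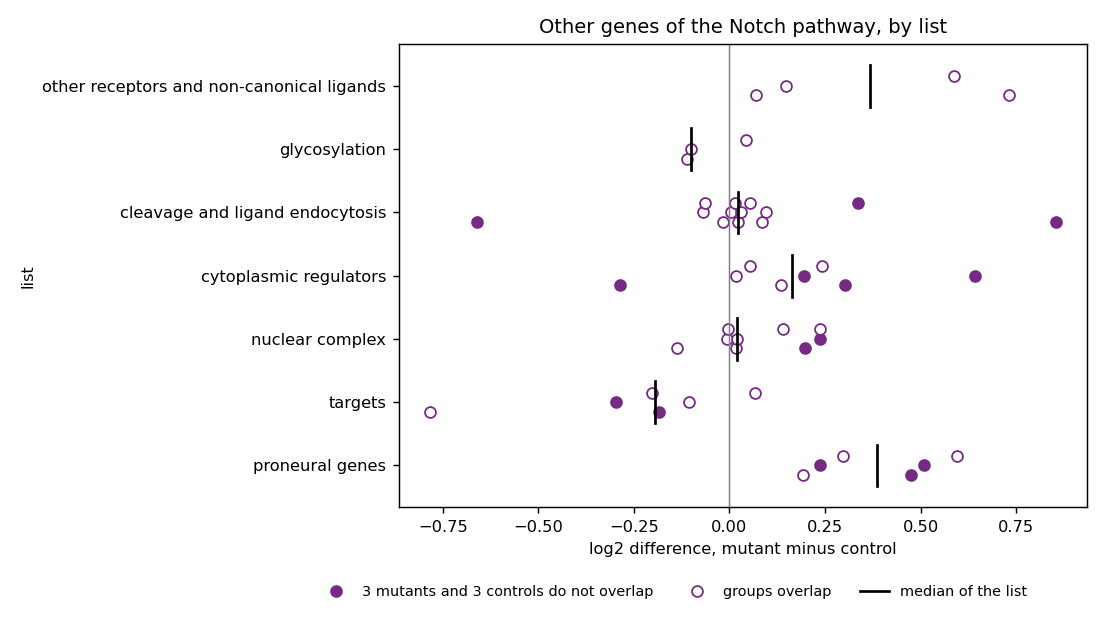
Log2 difference, mutant minus control, of 49 other genes of the pathway (x axis) by list (y axis), filled where 3 mutants and 3 controls do not overlap, with the median of each list as a black line. The targets lie mostly below 0, the proneural genes all above it, and the nuclear complex around it.

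Among 13 genes for cleavage and ligand endocytosis the median was 0.02. There Neurl1b, a ubiquitin ligase that promotes ligand endocytosis, was 2.89 ± 0.35 in mutants and 3.55 ± 0.23 in controls (SD, n = 3 each), a difference of -0.66 (SE 0.21, limma, adjusted p = 0.227). Ncstn, a subunit of the gamma-secretase that cleaves Notch, was -4.72 ± 0.13 in mutants and -5.05 ± 0.16 in controls (difference 0.34, SE 0.12, adjusted p = 0.247). The 8 cytoplasmic regulators had a median of 0.16. Dtx4, of the Deltex family of ubiquitin ligases, was 2.32 ± 0.07 in mutants and 2.6 ± 0.07 in controls (adjusted p = 0.196). Numbl, a relative of the Notch inhibitor Numb, was 1.55 ± 0.16 in mutants and 1.25 ± 0.02 in controls (adjusted p = 0.228). All 4 of these genes had groups without overlap, but they were named for the smallest unadjusted p of their lists, which favours such groups. Among the 13 genes the mutants were above all controls for 2 and below them for 1. Among the 8 regulators these counts were 3 and 1. Of all rows, 24.8% had groups without overlap.

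The 9 genes of the nuclear complex had a median of 0.02. Rbpj itself was at 1.0, 1.01 and 1.32 in mutant embryos, against 0.96, 0.82 and 0.95 in control embryos, a narrow gap (difference 0.20, SE 0.11, limma, adjusted p = 0.426). It is named for its role and not by the size of its p. Kat2b, a histone acetyltransferase, differed by 0.24 (SE 0.10, adjusted p = 0.325) and Maml3, a Mastermind coactivator, by 0.24 (SE 0.11, adjusted p = 0.34). Pofut1, which adds the fucose that fringe enzymes extend, differed by -0.10 (SE 0.08, adjusted p = 0.545), and Poglut1, which adds glucose to the same receptor repeats, by -0.11 (SE 0.09, adjusted p = 0.558). The median of the 3 glycosylation genes was -0.10. All 4 other receptors and non-canonical ligands had positive differences, with a median of 0.37. Dner, an EGF-repeat protein of neurons, was at -0.05, 0.64 and 0.97 in mutant embryos, against -0.03, -0.15 and -0.02 in control embryos, so that mutant 1 lay among the controls (adjusted p = 0.33). Dlk1, an imprinted Delta-like protein, was at 3.99, 2.56 and 3.11 in mutant embryos, against 2.70, 2.86 and 1.90 in control embryos (difference 0.73, SE 0.43, adjusted p = 0.439).

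Among the mutants, Dll3 stood in the same order as the medians of the proneural, basal progenitor and neuronal lists, lowest in mutant 1 and highest in mutant 3. Among the controls it did not: Dll3 was lowest in control 1, where the medians of all 3 lists were highest. The median of the apical progenitor list, at 0.16, 0.31 and 0.33 in mutant embryos and -0.03, 0.05 and 0.009 in control embryos, had the order of Dll3 within each group. The median of the proneural list, measured against the mean of the controls, was 0.17, 0.43 and 0.48 in mutant embryos, and 0.002 to 0.03 in control embryos. The list of basal progenitors, the intermediate cells between radial glia and neurons, was at 0.23, 0.61 and 0.72 in mutant embryos, and that of neurons at 0.05, 0.44 and 0.51. Controls lay between -0.05 and 0.05 for basal progenitors and between -0.08 and 0.07 for neurons. The summed signal, in multiples of the array's 75th percentile, was 26.2 to 35.2 in mutants and 20.1 to 21.3 in controls for all 4 basal progenitor genes, and 68.5 to 97.4 in mutants and 62.1 to 68.4 in controls for all 10 neuronal genes. For all 6 proneural genes it was 41.8 to 53.2 in mutants and 35.4 to 37.5 in controls. How far the number of such cells sets the Dll3 values was not tested.

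**Figure D5:**
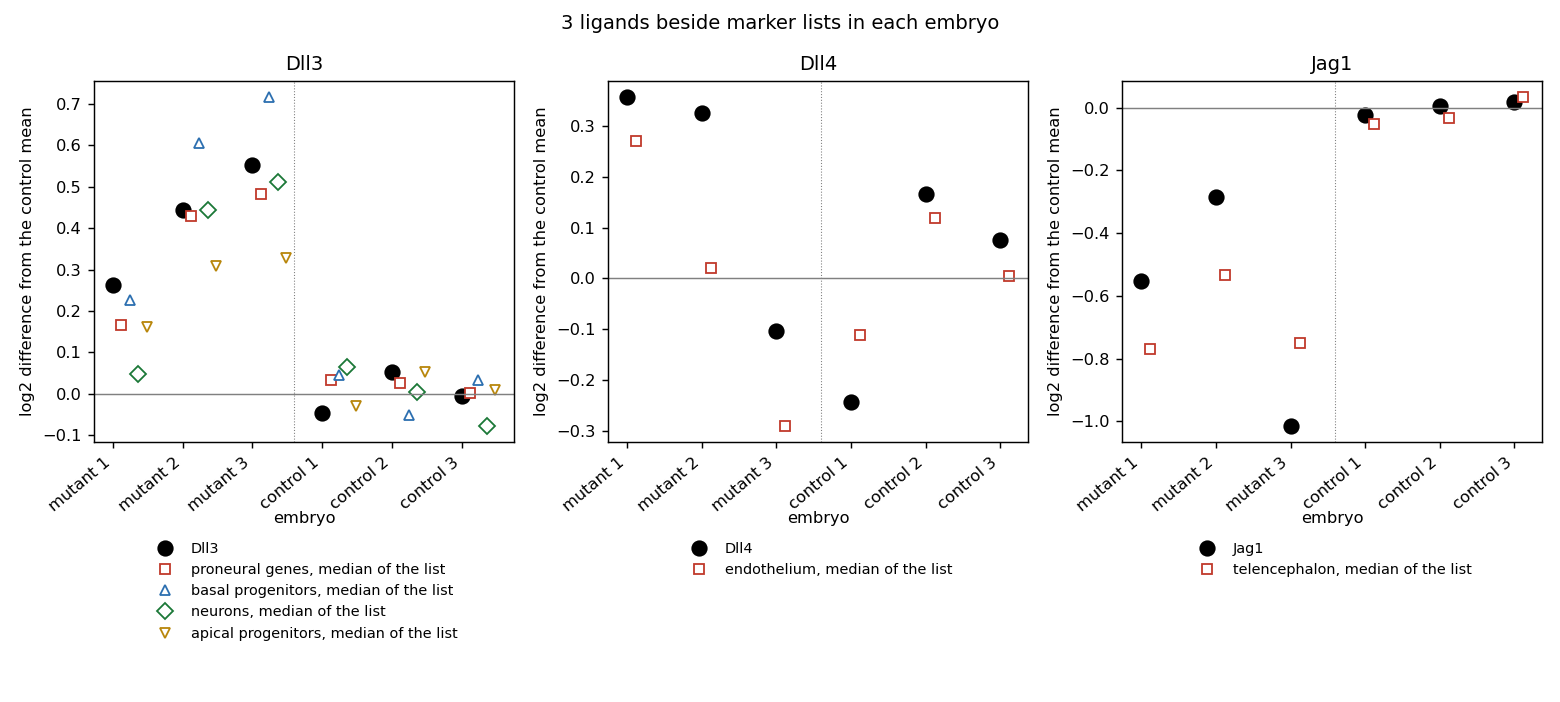
Log2 difference from the control mean in each embryo (y axis) for Dll3, Dll4 and Jag1 as black points, beside the medians of marker lists as open symbols, mutants left and controls right. Dll3 and the 4 lists beside it are lowest of the mutants in mutant 1, while in the controls only the apical progenitor list keeps the order of Dll3. Dll4 and the endothelium are lowest of the mutants in mutant 3. Jag1 is below the controls in all mutants, as is the median of the telencephalic list, though Pax6 of that list is above them.

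Other lists moved with the groups or with single embryos. The 4 telencephalic genes summed to 44.9 to 52.4 in mutants and 70.2 to 74.6 in controls. Most of this sum is Lhx2, by far the brightest of them (mean level 5.43 in mutants and 6.01 in controls). Their medians were -0.77, -0.53 and -0.75 from the control mean in mutant embryos, beside the low Jag1 values. Emx1, Emx2 and Lhx2 were below all controls and Pax6 above them. All 7 apical progenitor genes summed to 134 to 158 in mutants and 105 to 114 in controls, with a median difference of 0.23. Their differences ranged from 0.05 for Sox2 to 1.39 for Fabp7, a bright gene that weighs much in the sum. Mutant 3, lowest for Jag1, was also the lowest embryo for the medians of several lists, taken from the control mean. These were -0.29 for endothelium, -0.265 for mural cells and -0.715 for meninges and mesenchyme. Erythroid cells were at -1.03, and choroid plexus and roof plate at -0.732. Mutant 3 was likewise the lowest embryo for Wnt5a and Wnt8b of the cortical hem, a signalling centre at the medial edge of the pallium. Wnt5a was at -1.65, -1.98 and -2.99 in mutant embryos, against -2.48, -2.44 and -2.86 in control embryos. Wnt8b was at 0.48, -0.12 and -6.15 in mutant embryos, against 0.54, 0.86 and 1.35 in control embryos, below every control in every mutant. Rspo2 and Bmp6 were well above background in 1 control embryo alone and passed the filter through the mutants, so no sum or median of the list is given (Wnt2b and Wnt3a had no row). For Rspo2 and Bmp6 mutant 3 was the lowest mutant, at -6.88 and -6.55, but not the lowest embryo. Control 3 was low for the 7 measured subpallial genes, at a summed signal of 0.725, against 5.23 and 6.66 in the other controls. Mutants were at 5.26 to 11.3 for these genes (Nkx2-1 had no row). For the remaining lists the ranges of mutants and controls overlapped. They were 13.7 to 20.6 in mutants and 15.8 to 18.6 in controls for 11 endothelial genes, 1.22 to 1.75 and 1.44 to 1.74 for 7 mural genes, and 13.9 to 42.1 and 19.1 to 28.9 for 8 genes of meninges and mesenchyme, in the same order of groups. They were 1.7 to 2.91 in mutants and 2.24 to 2.73 in controls for 6 microglial genes, 281 to 427 and 377 to 438 for 5 erythroid genes, and 0.676 to 3.16 and 1.01 to 1.42 for 4 of 6 choroid plexus and roof plate genes (Ttr and Kcne2 had no row). The part of these cells and regions in the values of the members was not tested.

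The genes whose levels followed those of 3 members most closely over the 6 arrays, out of 15998 compared, were taken by Pearson's r as a description. For Dll3 they were Trp53i11 (0.9984), Ttc16 (0.9969) and Megf10 (0.9931). For Dll1 they were Cyp4f13 (0.9934), Ppp6r1 (0.9881) and 1700034P13Rik (0.9816). For the brighter Notch1 probe they were Ermn (0.9958), Slc16a7 (0.9940) and F830034J09Rik (0.9926). The 6 points share litters and slides, and these genes are the nearest of many profiles.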

How the data were processed

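RNA from the dorsal forebrain of 6 single embryos (3 mutant, 3 control) was read on Agilent arrays. The scanner files hold linear spot intensity values made by the authors with Agilent Feature Extraction, version 10.7.3.1, for array design 026655 with mm9 positions, per the file headers. Within an array, this signal had background subtracted; it was not normalized between arrays. The deposited spot marks of 0 or 1 (well above background, saturated, outlier) carry no unit and are other values, per the file headers. The authors' deposited comparison table holds log2 values by group, a log2 ratio, the linear ratio, and a p-value and fdr. The submitters' processing notes name limma without a version or role. In the comparison table, numbering departs from the titles: the column numbered 1 of the mutants is closest to array mutant 2 (r = 0.904), so its columns were used by group only.

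Outlier spots were left out, log2 signals were scaled by the array's 75th percentile over 43020 non-control spots, and spots of a probe were averaged. Probes without a value on an array (92) were left out. A probe was kept if well above background on 3 or more of the 6 arrays (26864 probes), and the brightest probe of a gene was its row (21202 rows, 17226 named). Names came from the accession in RefSeq GRCm38.p6 (names only), or else from the authors' table. The group comparison used limma 3.58.1 (lmFit, eBayes; R 4.3.3), two-sided, with Benjamini-Hochberg adjustment at 0.05. Further probes of a gene were tested in a fit over all kept probes. The fit was tested on simulated data. Other steps ran in Python 3.11.15 with pandas 2.3.3, numpy 2.4.6 and, for plots, matplotlib 3.10.9. Promoter windows come from RefSeq GRCm38.p6.

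The titles give the litter that a mutant and a control share, so litters pair the samples. Over all rows, each embryo's deviation from its group mean correlated with that of its littermate at 0.307, 0.36 and 0.108 within litters 1, 2 and 3. The members, the 7 lists of pathway genes and the 12 lists of markers were chosen with earlier results of these data known. The members are all named. Of each pathway list the rule names the genes that passed, or else the 2 of smallest unadjusted p. Hes5, Hey2, Heyl, Nrarp, Rbpj and the marker genes were named outside it, after their values were seen. In the telencephalic list and in the list of the nuclear complex 1 gene each is not reported here and was left out of the values. The profiles most like Notch1, Dll1 and Dll3 were also named by rule.

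Alternatives were normexp background correction (offset 50, on the median signal), quantile normalization, the array median as centre, no filter or a filter on all 6 arrays, all kept probes as rows, one mean per gene over its probes, a block for litter, a block for slide, array weights, a variance trend with robust fit, the authors' log2 values, an adjusted p under 0.1, and omission of each embryo. Slide 2 alone, and the litter block joined to the variance trend with robust fit, were added after seeing the data.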

Additional observations from a re-analysis of the deposited data

How the results depend on the processing

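The count of members past the threshold was 0 in all 21 alternatives, and that of the other pathway genes was 0 as well. In several alternatives no row of the whole table passed, so a count of 0 members was bound to follow there. These were no filter on dim probes, litter or slide as a block, slide 2 alone and most fits without 1 embryo. The sign of the difference was the same in all 20 alternatives that give one for Notch1, Dll3, Jag1, Jag2, Lfng and Mfng. For Dll3 it lay between 0.33 and 0.50 and the smallest adjusted p was 0.0794 (normexp). For Jag1 it lay between -0.79 and -0.42 (smallest adjusted p 0.0908) and for Jag2 between 0.25 and 0.39 (0.0807). Small differences turned their sign in these alternatives, and the cause was not tested. That of Notch2 was 0.23 with the mean of the kept probes of a gene. That of Notch3 was 0.000817 with normexp, 0.00275 with quantile normalization and 0.03 with the authors' log2 values. That of Dll1 was -0.0182 with normexp and -0.0854 with the array median as centre. That of Dll4 was -0.00985 on slide 2 alone. With 1 embryo left out in turn, the differences ranged from -0.0838 to 0.0158 for Notch2, from -0.055 to 0.00413 for Notch3, from -0.0506 to 0.0686 for Dll1, from 0.07 to 0.34 for Dll4, from 0.15 to 0.92 for Notch1, from -0.289 (without control 1) to -0.124 for Lfng, and from 0.0486 (without mutant 3) to 0.197 (without mutant 1) for Mfng, which was 0.0341 with the array median as centre. Without mutant 3, that of Dll4 was 0.34, and without control 1 it was 0.07. The difference of Notch2 was 0.0158 without control 3 and 0.0035 without mutant 3, and that of Dll1 was -0.0506 without mutant 2, -0.0245 without control 2 and -0.0116 without mutant 3.

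The count over all rows, 7, depended on the processing. It was 169 with normexp, 140 with trend and robust variance, 23 with the filter on all 6 arrays, 22 with the array median as centre, 22 with the authors' log2 values, 19 with array weights, 15 with quantile normalization and 61 at an adjusted p under 0.1. It was 2 with the mean of the kept probes, 0 without a filter on dim probes, 0 with litter as a replicate block (4200 at an unadjusted p under 0.05, against 3576 in the fit as reported), 0 with slide as a block, 0 on slide 2 alone and 2 with the litter block and trend and robust variance. Without single embryos it ranged from 0 to 1. The array median as centre moved the median of all differences by -0.0876. With litter as a replicate block no member or pathway gene passed the adjusted threshold, as in the fit as reported. At an unadjusted p under 0.05 the block gave 4 members, against 3, and 11 pathway genes, against 8, of which 7 were shared. All 14 member probes were well above background on every array, and 3 arrays a group limit the precision.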
